A study of Homo sapiens with 12 samples.

Results

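Collagen chain genes encode the α chains that assemble, 3 at a time, into the triple helices of the collagens. They were taken as the genes whose symbol is COL, a number, A and a number, and 44 of the 19293 genes in the deposited count table met that rule. Of these, 23 had enough counts to be tested and 21 did not. RNA was sequenced from HT1080, an established human fibrosarcoma line, in 12 libraries that the labels place in 4 groups of 3. Untreated cells received neither agent, IFNγ cells received 10 ng/ml of IFNγ, irradiated cells received 20 Gy, and combination cells received both. Cells were of passage 15 to 20 and were harvested after 24 h. Nothing in the labels says that the 3 libraries of a group came from separate cultures, so p-values here rest on the spread between libraries and that spread may be technical. IFNγ is a cytokine that T and NK cells release and that acts through a receptor on the cell surface.

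Fibrillar collagens such as types I and V form the banded fibrils of connective tissue. Collagen IV instead forms the sheet-like network of basement membranes, FACIT collagens sit on the surface of fibrils, and collagen VI forms beaded filaments close to the cell. Each chain is hydroxylated and folded in the endoplasmic reticulum, secreted as a trimer, trimmed by proteases and cross-linked outside the cell. Fibroblasts and tumours derived from mesenchyme are typical producers.

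Library totals ran from 9675126 to 11010656 counts. As a check of the labels, the p53 targets CDKN1A and MDM2 were higher in irradiated than in untreated cells by 2.45 ± 0.0373 and 2.14 ± 0.0326 (log2 fold change ± SE), and the IFNγ target IRF1 was higher in IFNγ than in untreated cells by 4.81 ± 0.169. The 7 mesenchymal markers summed to between 6490 and 7060 CPM in every library. CPM is the count relative to the TMM-scaled library total (trimmed mean of M-values). Of the 7 markers 5 passed the filter on low counts, while THY1 and FAP had at most 2 counts in any library. S100A4 averaged 1.04 to 1.57 CPM by group, and most of the sum was VIM and FN1. Within that sum VIM was at 5190 ± 131 CPM untreated, 5490 ± 63 with IFNγ, 4210 ± 36.8 irradiated and 4510 ± 87.2 with both, and FN1 at 1630 ± 52.8, 1180 ± 42.2, 2220 ± 104 and 1980 ± 88. FN1, which encodes the matrix protein fibronectin, was thus lowest with IFNγ and highest after radiation, and its relation to the collagen values was not tested. The 6 epithelial markers summed to 1.42 to 2.35 CPM in the 6 unirradiated libraries and to 2.45 to 4.62 CPM in the 6 irradiated ones. Only 1 of these 6 markers passed the filter. Most of their sum was CLDN4, at 1.85 ± 0.384 CPM untreated, 1.59 ± 0.275 with IFNγ, 3.22 ± 0.884 irradiated and 3.06 ± 1.04 with both. EPCAM, CDH1, KRT5 and KRT14 had at most 2 counts in any library, and ESRP1 at most 6. The 4 endothelial markers summed to 1.51 to 3.6 CPM. The 5 leukocyte markers summed to 4.52 CPM in irradiated replicate 2 and to between 0.188 and 1.19 CPM in the other 11 libraries. No marker of these lists was at 0 in all 12 libraries. Because these are bulk libraries, a change in how many cells express a gene and a change in RNA per cell cannot be told apart.

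In untreated cells collagen transcripts made up 5541 ± 65.1 CPM (mean ± SD, n = 3), of which collagen VI held 64.8 ± 0.0689% and collagen IV 22.7 ± 0.13%. COL6A3 (ENSG00000163359.15), the long chain of collagen VI, alone held 59.6 ± 0.342% of the collagen counts. Levels of different genes were compared as CPM per kilobase of the longest coding transcript. On that scale COL6A3 was at 307 ± 3.78, followed by COL4A2 at 102 ± 2.55, COL4A1 at 86.6 ± 0.672, COL13A1 at 66.4 ± 1.84 and COL6A1 at 41.3 ± 2.11. COL6A2 at 32.5 ± 2.62 and COL5A1 at 31.2 ± 1.04 did not differ beyond their spread. With all annotated exons merged as the length, COL4A1 was at 38.9, COL4A2 at 34.3, COL13A1 at 36 and COL6A1 at 32.8, so the order of these 4 genes depends on the gene model.

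A lower tier held COL27A1 at 8.08 ± 0.602, COL12A1 at 6.9 ± 0.214, COL4A5 at 3.77 ± 0.343, COL17A1 at 3.41 ± 0.285 and COL18A1 at 2.53 ± 0.0814 CPM per kilobase. COL4A5 and COL17A1 overlapped within their spread. COL8A1 at 0.931 ± 0.123, COL1A1 at 0.91 ± 0.08, COL7A1 at 0.785 ± 0.0735 and COL22A1 at 0.779 ± 0.0426 formed a group in which neighbours did not differ beyond their spread. COL1A1 and COL1A2, the chains of collagen I, which is the main collagen of most fibroblasts, were thus low in this line, with COL1A2 at 0.296 ± 0.0286. The remaining 6 tested genes, COL16A1, COL10A1, COL8A2, COL5A2, COL4A6 and COL15A1, lay between 0.0991 and 0.315.

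**Figure D1:**
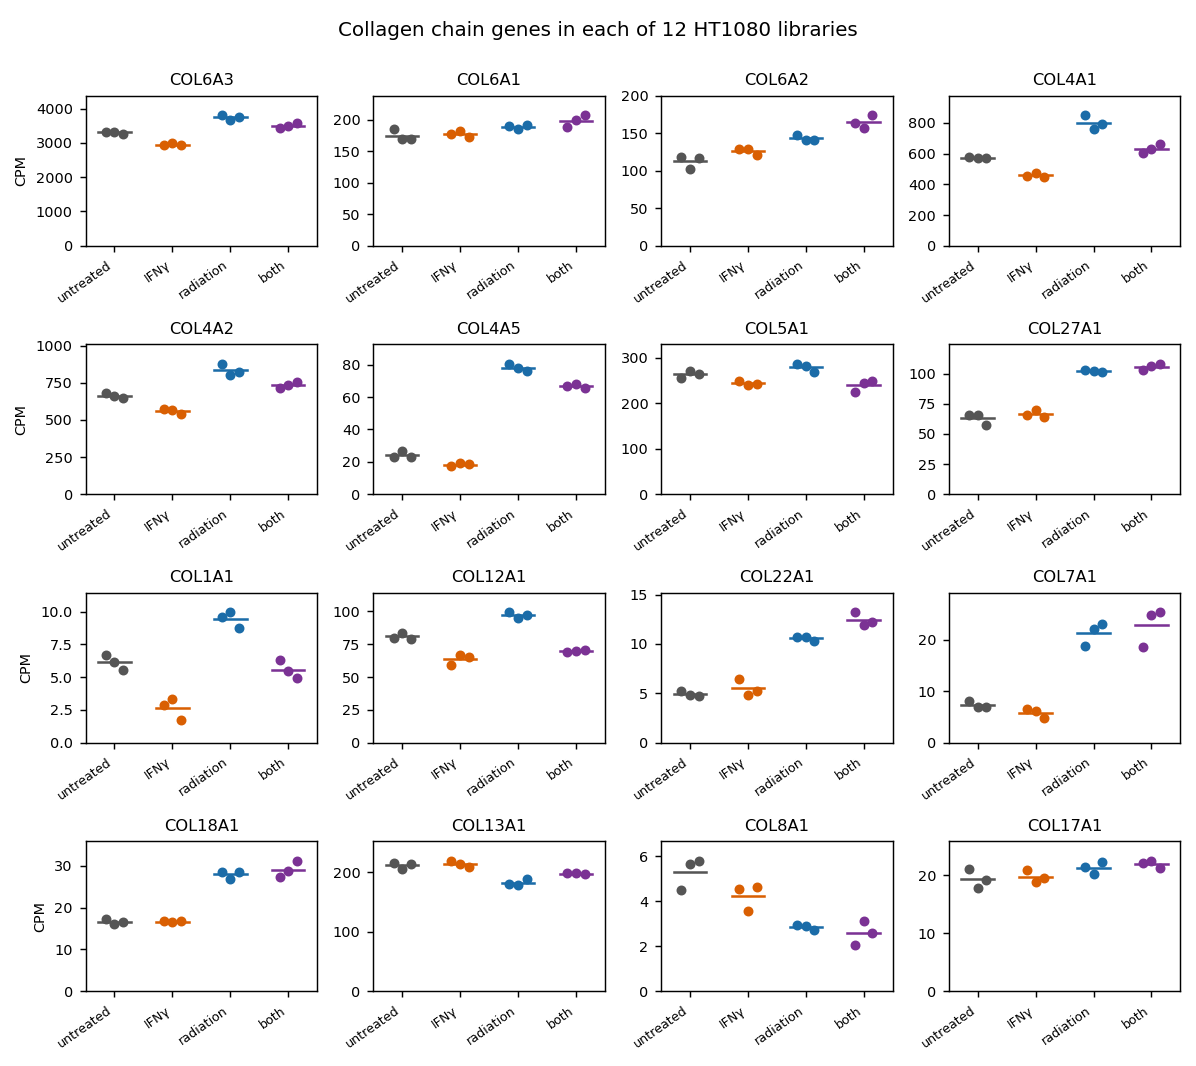
CPM of 16 collagen chain genes in each of the 12 libraries, by group; points are libraries, bars are group means of 3 libraries, and each vertical axis starts at 0. COL4A5 and COL7A1 show the widest separation of irradiated from unirradiated libraries among these 16, and COL1A1 is lowest in the IFNγ libraries.

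Radiation was followed by higher counts of most tested collagens. Of the 23 tested genes 19 rose in irradiated against untreated cells and 2 fell, with a median log2 fold change of 0.618 against 0.00607 over all 12160 tested genes. Genes called at an adjusted p under 0.05 made up 27.9% of all tested genes in the higher direction and 28.2% in the lower (edgeR quasi-likelihood test, Benjamini-Hochberg). By class, the called genes were 4 of 5 tested fibrillar genes, 4 of 4 basement membrane genes, 3 of 3 FACIT genes and 8 of 11 others, and the 2 that fell, COL13A1 and COL8A1, were among the others. The summed collagen level was 6734, 6413 and 6564 CPM in the irradiated libraries against 5596, 5558 and 5469 in the untreated ones. The 6 irradiated and combination libraries also had the 6 highest epithelial marker sums, which were mostly CLDN4 and whose part in these values was not tested. The filter on low counts asked for about 0.965 CPM in any 3 libraries. COL15A1, COL4A6 and COL8A2 passed it only with libraries from irradiated and combination cells, so a higher level there was part of their selection. COL5A2 and COL10A1 passed it without the libraries of irradiated cells as well. A group was held to reach the cutoff when all 3 of its libraries did. By that rule COL10A1 reached it in irradiated cells alone, and COL15A1, COL4A6, COL5A2 and COL8A2 in irradiated and combination cells alone. Among the other 18 genes, which reached the cutoff in all 4 groups, 15 rose and 2 fell, with a median of 0.417, and 3 of 3 basement membrane genes rose. Neither of the tested transmembrane chains was called higher: COL13A1 fell and COL17A1 was not called.

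IFNγ alone was followed by lower counts of several collagens. Of the 23 tested genes 7 fell and 1 rose in IFNγ against untreated cells, with 15 not called and a median log2 fold change of -0.146 against -0.00521 over all tested genes. Over all tested genes 14.1% were called lower and 15% higher. The genes that fell were COL1A1, COL5A1, COL4A1, COL4A2, COL4A5, COL12A1 and COL6A3, and COL6A2 rose. The summed collagen level was 4936, 5012 and 4877 CPM in the IFNγ libraries, below all 3 untreated libraries.

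In combination cells 15 of the 23 genes were higher than in untreated cells and 4 were lower, with a median of 0.274 against -0.00137 over all tested genes. The shares over all tested genes were 30.9% higher and 31.2% lower. Of the 15, COL15A1, COL4A6 and COL8A2 passed the filter only through irradiated and combination cells, so a higher level was part of their selection. Among the 18 genes past the cutoff in all 4 groups, 12 were higher and 4 lower, with a median of 0.181. Summed collagen was 5878, 6011 and 6174 CPM, between the untreated and the irradiated libraries and overlapping neither. The comparisons of IFNγ, irradiated and combination cells with untreated cells share the 3 untreated libraries, so their values are set side by side and were not correlated.

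**Figure D2:**
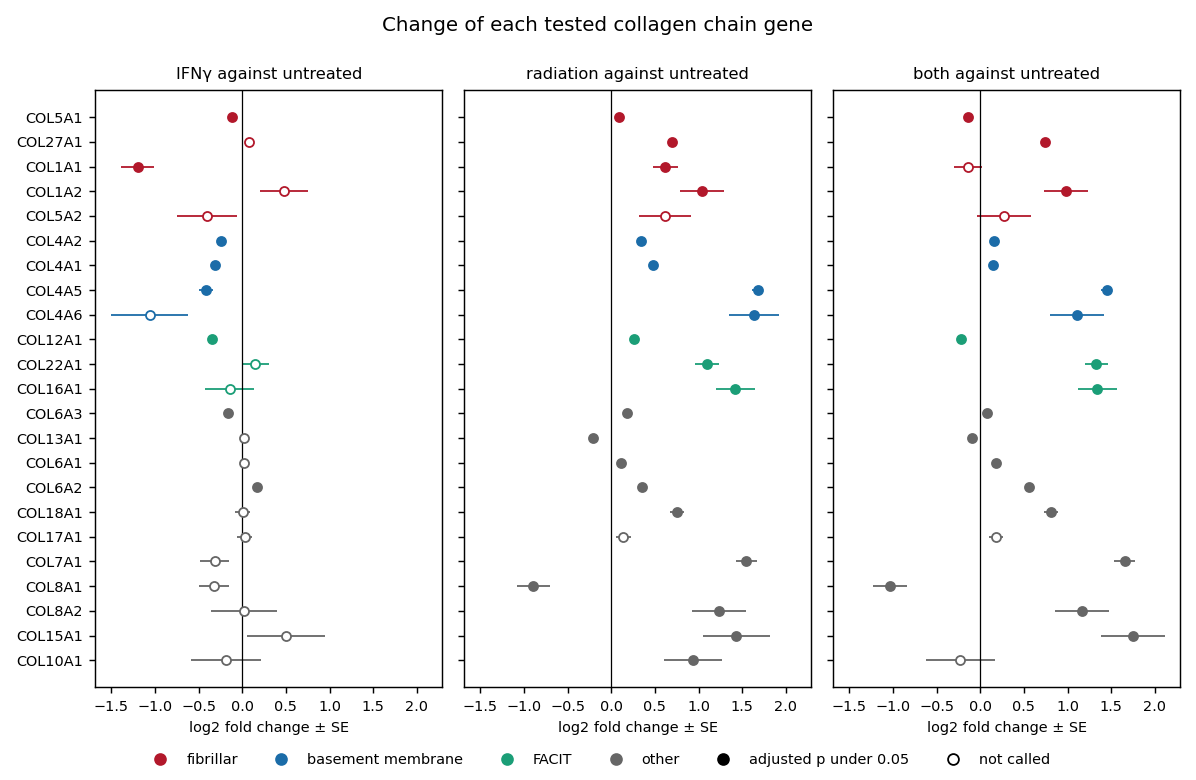
Log2 fold change ± SE against untreated cells of the 23 tested collagen chain genes (rows, coloured by class) for IFNγ, radiation and both; filled points have an adjusted p under 0.05. Most filled points lie left of 0 under IFNγ, where 7 genes fell and 1 rose, and right of 0 under radiation, where 19 rose and 2 fell.

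Collagen IV is the structural network of the basement membrane. COL4A1 and COL4A2 encode the chains of its common trimer, and COL4A5 and COL4A6 encode chains found in more restricted tissues. COL4A1 and COL4A2 are neighbours that start head to head, as are COL4A5 and COL4A6. The RefSeq starts of COL4A1 and COL4A2 are 127 bases apart. The stretch between them is shown because these 2 genes were called the same way in each comparison of the groups. COL4A5 and COL6A3 had the same calls as well, so shared calls are not particular to this pair. The 250 bases before the start of COL4A5, which rose further with radiation, are also shown. Capitals mark matches on either strand to the CCAAT box (CCAAT) and the GC box (GGGCGG). The first window is chr13:110307158-110307283 on the plus strand and the second chrX:108439588-108439837 on the plus strand, both in GRCh38.p14.
COL4A1 and COL4A2: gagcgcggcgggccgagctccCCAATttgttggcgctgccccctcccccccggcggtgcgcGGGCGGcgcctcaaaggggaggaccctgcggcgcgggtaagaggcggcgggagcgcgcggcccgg
COL4A5: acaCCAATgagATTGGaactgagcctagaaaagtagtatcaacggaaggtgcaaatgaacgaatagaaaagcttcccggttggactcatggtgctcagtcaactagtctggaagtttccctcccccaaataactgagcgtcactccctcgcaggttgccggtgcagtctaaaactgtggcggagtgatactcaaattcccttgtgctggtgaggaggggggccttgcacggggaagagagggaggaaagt
The shared window holds 1 CCAAT box and 1 GC box, and the COL4A5 window holds 2 CCAAT boxes and no GC box. Searched on both strands, CCAAT occurs in 34.6% of all 35116 promoter windows in the RefSeq table and GGGCGG in 45%. The ISRE core occurs in 3.57%, the AP-1 site in 7.71% and the p53 half-site in 6.63%. These shares are over whole windows, which were not cut to the stretches shown, of which the first is 126 bases long. Windows were available for 32 of the 44 collagen genes, with 44 windows in all, of which 31.8% held a CCAAT box and 54.5% a GC box. A match of letters is a description of the window and not a measured binding site.

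COL4A1 (ENSG00000187498.14) stood at 578, 570 and 571 CPM in untreated cells, 454, 474 and 451 with IFNγ, 849, 762 and 790 after radiation, and 603, 632 and 663 with both. The 4 groups did not overlap: IFNγ libraries were lowest and irradiated libraries highest. COL4A1 fell by 0.32 ± 0.0343 on the log2 scale with IFNγ (adjusted p = 2.37e-10, edgeR) and rose by 0.48 ± 0.0334 with radiation (adjusted p = 1.37e-16, edgeR). With both it was 0.14 ± 0.0336 above untreated cells (adjusted p = 0.000311, edgeR). COL4A2 (ENSG00000134871.17) ran in the same order, at 678, 660 and 645 CPM untreated, 571, 566 and 539 with IFNγ, 877, 805 and 825 irradiated, and 715, 734 and 754 with both, again with no overlap. Its log2 fold changes against untreated cells were -0.24 ± 0.0313 with IFNγ, 0.34 ± 0.0308 with radiation and 0.15 ± 0.0309 with both, all called.

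COL4A5, the chain mutated in most families with Alport syndrome, had the largest estimate among all tested collagens in irradiated against untreated cells, within the error of COL4A6. Between combination and IFNγ cells COL4A6 was at 2.17 ± 0.367, COL7A1 at 1.97 ± 0.126 and COL4A5 at 1.86 ± 0.0672 on the log2 scale. The levels of COL4A5 were 23.2, 27 and 23.1 CPM in untreated cells, 17.2, 19.1 and 18.8 with IFNγ, 80.5, 78 and 76.2 after radiation, and 66.8, 67.9 and 65.7 with both. Radiation thus took COL4A5 up 3.2-fold, by 1.68 ± 0.062 on the log2 scale (adjusted p = 8.5e-31, edgeR), while IFNγ alone lowered it 1.33-fold (adjusted p = 5.36e-05, edgeR). With both agents COL4A5 was 2.73-fold above untreated cells and 1.17-fold below irradiated cells. COL4A6, its head-to-head neighbour, moved the same way at far lower levels: it had 9, 13 and 8 counts untreated, 4, 6 and 4 with IFNγ, 36, 28 and 27 irradiated and 23, 25 and 18 with both. COL4A6 rose with radiation by 1.63 ± 0.286 (adjusted p = 2.17e-06, edgeR). The IFNγ difference of -1.06 ± 0.44 was not called (adjusted p = 0.0615, edgeR), although the libraries did not overlap, and was called at -1.12 when libraries were scaled by their totals without TMM factors (adjusted p = 0.0435, edgeR).

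All 6 COL4 genes together summed to 1260 ± 20.3 CPM untreated, 1038 ± 25.2 with IFNγ, 1718 ± 83.9 irradiated and 1436 ± 49 with both (SD, n = 3). Their share of collagen counts was 22.7 ± 0.13% untreated, 21 ± 0.247% with IFNγ, 26.1 ± 0.657% irradiated and 23.8 ± 0.235% with both. COL4A3 and COL4A4, the partners of COL4A5 in the glomerular network, had 28 and 31 counts over all 12 libraries and were not tested.

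Among the fibrillar genes, COL1A1 gave the largest fall with IFNγ of all collagens called. COL1A1 encodes the α1 chain, present in 2 copies per collagen I trimer, and COL1A2 the α2 chain, present in 1. COL1A1 stood at 6.66, 6.12 and 5.58 CPM untreated, 2.87, 3.36 and 1.71 with IFNγ, 9.58, 9.94 and 8.75 irradiated, and 6.28, 5.48 and 4.96 with both. IFNγ libraries were lowest and irradiated libraries highest, and combination libraries overlapped untreated ones. COL1A1 fell 2.3-fold with IFNγ, by 1.2 ± 0.187 on the log2 scale (adjusted p = 5.22e-07, edgeR), and rose 1.53-fold with radiation (adjusted p = 0.00017, edgeR). In irradiated cells IFNγ lowered it 1.69-fold, by 0.76 ± 0.143 on the log2 scale (adjusted p = 2.7e-05, edgeR), and combination and untreated cells were not told apart, at -0.14 ± 0.157 (adjusted p = 0.444, edgeR).

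COL1A2 was not called with IFNγ. It stood at 1.78, 1.51 and 1.52 CPM untreated, 2.47, 1.87 and 2.41 with IFNγ, 2.42, 4.52 and 3.01 irradiated, and 3.24, 3.68 and 2.66 with both. The untreated libraries were the lowest 3, and irradiated replicate 2 was the highest. The IFNγ difference of 0.48 ± 0.276 was not called (adjusted p = 0.2, edgeR), and COL1A2 rose 2.06-fold with radiation (adjusted p = 0.000412, edgeR). Irradiated replicate 2, the library with the highest leukocyte marker sum, also held 23 of the 26 COL3A1 counts of its group, and what that library shares with other cells was not tested. Without that library the COL1A2 rise with radiation was 0.76 (adjusted p = 0.0206, edgeR).

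Counts of COL1A1 per count of COL1A2 were 3.74, 4.06 and 3.67 in untreated libraries, 1.16, 1.8 and 0.708 with IFNγ, 3.96, 2.2 and 2.9 irradiated, and 1.94, 1.49 and 1.86 with both. Every library that received IFNγ was below every library that did not. Per kilobase the mean ratio was 3.07 ± 0.17 untreated, 0.984 ± 0.441 with IFNγ, 2.43 ± 0.712 irradiated and 1.42 ± 0.195 with both. COL1A1 rested on 17 to 36 counts in each IFNγ library, so single ratios there are imprecise. These ratios are a description and were not tested.

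**Figure D3:**
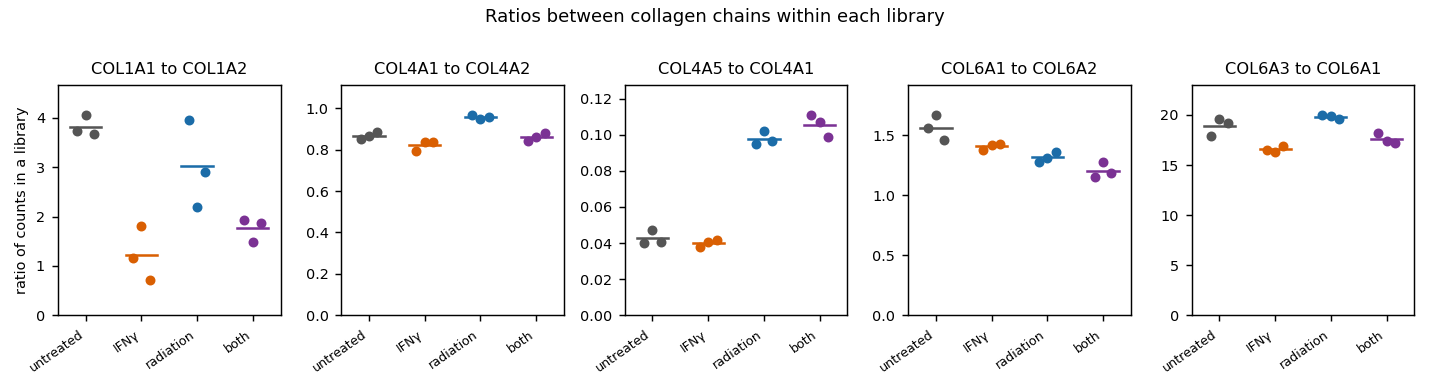
Ratios of counts between 2 collagen chains in each of the 12 libraries; points are libraries and bars are means of 3, on axes that start at 0. The ratio of COL1A1 to COL1A2 is 1.8 or less in the IFNγ libraries and 3.67 or more in the untreated ones, and that of COL4A5 to COL4A1, chosen after its values were seen, is higher in all 6 libraries from irradiated cells.

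COL5A1, which nucleates collagen I fibrils, was the most abundant fibrillar chain and moved little. It was at 255, 272 and 265 CPM untreated, 249, 240 and 243 with IFNγ, 287, 282 and 270 irradiated, and 225, 245 and 250 with both. Irradiated and untreated libraries overlapped, as did IFNγ and combination libraries. The clearest step was within irradiated cells, where IFNγ lowered COL5A1 by 0.22 ± 0.0363 on the log2 scale (adjusted p = 2.3e-06, edgeR). The fall of 0.11 ± 0.0364 with IFNγ alone (adjusted p = 0.014, edgeR) was lost without untreated replicate 2, at -0.09, or IFNγ replicate 2, at -0.1. The rise of 0.08 ± 0.0361 with radiation (adjusted p = 0.0479, edgeR) was lost in DESeq2 (adjusted p = 0.071), without the filter, with a replicate block, and without untreated replicate 1 or 3, IFNγ replicate 2, irradiated replicate 1 or 2, or combination replicate 2, at 0.06 to 0.09.

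COL27A1, a fibrillar collagen of cartilage, rose with radiation and was not called with IFNγ. It stood at 65.5, 65.9 and 57.6 CPM untreated, 66, 69.9 and 64 with IFNγ, 103, 102 and 101 irradiated, and 103, 106 and 108 with both. All 6 libraries from irradiated cells lay above all 6 others. The radiation step was 0.69 ± 0.0499 without IFNγ and 0.66 ± 0.049 with it, on the log2 scale. COL5A2, the partner chain of COL5A1, had only 6 to 23 counts a library. Its radiation difference of 0.61 ± 0.294 was not called (adjusted p = 0.0697, edgeR) but was at 0.79 without untreated replicate 1. The 5 fibrillar genes were joined by 6 that were not tested, of which COL3A1, the fine-fibril collagen of skin and vessels, had 53 counts in all 12 libraries.

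Of the FACIT genes, COL12A1 was the most abundant. It binds the surface of collagen I fibrils. It was at 80, 83.7 and 78.9 CPM untreated, 59.2, 67 and 64.9 with IFNγ, 99.2, 95.2 and 97 irradiated, and 68.8, 69.5 and 70.3 with both, and the 4 groups did not overlap. COL12A1 fell by 0.34 ± 0.0504 on the log2 scale with IFNγ (adjusted p = 1.38e-07, edgeR) and rose by 0.26 ± 0.0473 with radiation (adjusted p = 3.48e-06, edgeR). With both it was below untreated cells by -0.22 ± 0.0494 (adjusted p = 0.000134, edgeR). Its radiation rise within IFNγ-treated cells, 0.13 ± 0.0514 (adjusted p = 0.0315, edgeR), was lost in DESeq2, without the filter, and without IFNγ replicate 1 or combination replicate 2 or 3, at 0.09 to 0.13.

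COL22A1, a FACIT of tissue junctions, was at 5.25, 4.8 and 4.77 CPM untreated, 6.43, 4.85 and 5.22 with IFNγ, 10.7, 10.7 and 10.3 irradiated, and 13.2, 11.9 and 12.2 with both. It rose 2.14-fold with radiation (adjusted p = 4.71e-10, edgeR). Combination libraries lay above irradiated ones, yet that difference of 0.23 ± 0.109 was not called (adjusted p = 0.107, edgeR). COL16A1, a FACIT of several connective tissues, averaged 1.81 ± 0.586 CPM untreated, 1.62 ± 0.0502 with IFNγ, 4.85 ± 0.921 irradiated and 4.58 ± 0.454 with both. Its rise with radiation was 2.68-fold (adjusted p = 2.42e-07, edgeR), and its IFNγ difference of -0.15 ± 0.285 was not called.

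Of the 3 tested chains of collagen VI, COL6A3 was called lower with IFNγ, COL6A2 higher and COL6A1 neither. COL6A3 was at 3320, 3330 and 3260 CPM untreated, 2930, 2990 and 2930 with IFNγ, 3800, 3670 and 3760 irradiated, and 3440, 3480 and 3570 with both, with no overlap between groups. It fell by 0.16 ± 0.025 on the log2 scale with IFNγ (adjusted p = 3.23e-07, edgeR) and rose by 0.18 ± 0.025 with radiation (adjusted p = 1.15e-08, edgeR). These steps are of 1.12-fold and 1.13-fold, small beside those of COL4A5 but carried by the largest number of collagen counts.

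COL6A2 rose in all 5 pairwise comparisons. It was at 119, 102 and 117 CPM untreated, 129, 129 and 121 with IFNγ, 148, 141 and 141 irradiated, and 164, 157 and 174 with both, and the groups did not overlap. The step was 0.17 ± 0.0474 on the log2 scale with IFNγ (adjusted p = 0.00486, edgeR), 0.35 ± 0.0468 with radiation and 0.55 ± 0.0458 with both. The IFNγ step was lost with no TMM scaling, at 0.11 (adjusted p = 0.0656, edgeR), and without untreated replicate 2, also at 0.11. COL6A1, its neighbour, was at 185, 170 and 170 CPM untreated, 177, 183 and 173 with IFNγ, 190, 185 and 192 irradiated, and 189, 200 and 207 with both. Its difference with IFNγ, 0.02 ± 0.0396, was not called, and its rise with radiation, 0.11 ± 0.0394 (adjusted p = 0.0152, edgeR), was lost without untreated replicate 2 or 3, at 0.09, or irradiated replicate 3, at 0.1. The count ratio of COL6A3 to COL6A1 was 18.9 ± 0.886 untreated, 16.6 ± 0.321 with IFNγ, 19.8 ± 0.198 irradiated and 17.6 ± 0.513 with both. COL6A5 and COL6A6 had 39 and 48 counts over the 12 libraries.

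COL7A1 encodes the anchoring fibril that ties the epidermal basement membrane to the dermis. It stood at 8.07, 6.87 and 6.9 CPM untreated, 6.63, 6.07 and 4.82 with IFNγ, 18.8, 22.1 and 23 irradiated, and 18.6, 24.7 and 25.3 with both. All 6 libraries from irradiated cells lay above all 6 others. COL7A1 rose 2.92-fold with radiation (adjusted p = 5.86e-15, edgeR) and 3.92-fold with radiation in IFNγ-treated cells (adjusted p = 3.97e-18, edgeR). The IFNγ difference in unirradiated cells, -0.32 ± 0.162, was not called (adjusted p = 0.144, edgeR). The 250 bases before its RefSeq start, chr3:48595330-48595579 on the minus strand of GRCh38.p14, are shown because COL7A1 was among the 3 strongest risers with radiation and the only one of them whose window holds a TATA box. Capitals mark matches on either strand to the GC box and the TATA box (TATAAA), which do not overlap each other.
COL7A1: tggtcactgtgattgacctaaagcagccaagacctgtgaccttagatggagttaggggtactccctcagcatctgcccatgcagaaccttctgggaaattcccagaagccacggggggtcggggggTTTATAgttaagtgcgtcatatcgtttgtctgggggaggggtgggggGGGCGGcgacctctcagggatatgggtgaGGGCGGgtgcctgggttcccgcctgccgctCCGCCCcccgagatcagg
The window holds 3 GC boxes and 1 TATA box, the latter at bases 127 to 132 and reading TATAAA on the opposite strand. It holds no ISRE core, AP-1 site or p53 half-site. Searched on both strands over whole windows, TATAAA occurs in 11.5% of all windows and in 18.2% of the 44 collagen windows. Among the latter are windows of COL13A1, which fell with radiation, and of COL17A1, which was not called. The match is thus not particular to genes that rose.

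COL18A1 and COL15A1 are multiplexins of basement membrane zones, and COL18A1 releases the fragment endostatin. COL18A1 was at 17.2, 16.1 and 16.6 CPM untreated, 16.7, 16.6 and 16.7 with IFNγ, 28.5, 26.9 and 28.5 irradiated, and 27.3, 28.8 and 31.2 with both. It rose 1.68-fold with radiation (adjusted p = 1.14e-11, edgeR), and the IFNγ difference was 0 ± 0.0901. The exons of SLC19A1 on the opposite strand cover 16.4% of those of COL18A1, and the strand setting of the counting is not given, so some counts could belong to either. COL15A1 averaged 0.545 ± 0.19 CPM untreated, 0.773 ± 0.263 with IFNγ, 1.49 ± 0.108 irradiated and 1.86 ± 0.273 with both, on 4 to 23 counts a library. Its radiation rise was 2.69-fold (adjusted p = 0.00126, edgeR).

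COL13A1 and COL8A1 were the 2 genes that fell with radiation. COL13A1, a transmembrane collagen of cell adhesion sites, was at 216, 205 and 214 CPM untreated, 219, 213 and 209 with IFNγ, 181, 179 and 188 irradiated, and 198, 198 and 197 with both. It fell by 0.21 ± 0.0361 on the log2 scale with radiation (adjusted p = 1.26e-06, edgeR), and combination libraries lay between the irradiated and the unirradiated ones. COL8A1, a short-chain network collagen, was at 4.5, 5.65 and 5.79 CPM untreated, 4.55, 3.55 and 4.62 with IFNγ, 2.92, 2.91 and 2.72 irradiated, and 2.06, 3.12 and 2.57 with both. It fell 1.86-fold with radiation (adjusted p = 7.32e-05, edgeR). Its partner chain COL8A2 was at 0.975 ± 0.398 CPM untreated and 2.29 ± 0.501 irradiated, on 7 to 28 counts a library. COL8A2 passed the filter only through irradiated and combination cells, so its call as higher is not set against that of COL8A1.

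COL17A1, the transmembrane collagen of hemidesmosomes, was called in none of the comparisons, at 19.4 ± 1.62 CPM untreated, 19.8 ± 1.12 with IFNγ, 21.3 ± 1.05 irradiated and 22 ± 0.609 with both. Its combination difference of 0.18 ± 0.0835 had an adjusted p of 0.0562 (edgeR), and 0.0194 at 0.25 without untreated replicate 1. Between combination and IFNγ cells it was called only with no TMM scaling, at 0.19 (adjusted p = 0.0445, edgeR). COL10A1, the collagen of hypertrophic cartilage, had 6 to 22 counts a library and reached the cutoff in all 3 libraries of a group only in irradiated cells. It rose with radiation by 0.94 ± 0.333 (adjusted p = 0.0139, edgeR), a call lost in DESeq2 (adjusted p = 0.0696) and without untreated replicate 2, at 0.79, or irradiated replicate 3, at 0.82.

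Radiation was also compared within IFNγ-treated cells, and IFNγ within irradiated cells. Between combination and IFNγ cells, 16 of the 23 collagens were higher and 2 lower, against 30.3% and 30.4% of all tested genes, with a median of 0.506 against 0.00054. That comparison shares no library with irradiated against untreated cells. Of the 19 genes higher in the latter, 16 (84.2%) were higher in both, which is 100% of the 16, and the others were COL10A1, COL1A2 and COL5A1. This overlap, and that for IFNγ below, was not counted over all tested genes, so neither is given as particular to collagens. Of the 16, COL15A1, COL4A6 and COL8A2 owed their place to the filter, and among the 18 genes past the cutoff in all 4 groups the shared number was 13 of 15 (86.7%) and 13 of 13. COL1A2, at 0.51 ± 0.236 between combination and IFNγ cells (adjusted p = 0.0587, edgeR), was called with no TMM scaling, at 0.54, with only these 2 groups fitted, without irradiated replicate 2, both at 0.51, and without combination replicate 3, at 0.62. COL13A1 and COL8A1 were lower in both. Between combination and irradiated cells 8 collagens were lower and 2 higher, against 12.4% and 14.5% of all tested genes, with a median of -0.0803 against -0.00783. It shares no library with IFNγ against untreated cells. The 7 genes that fell with IFNγ alone were all (100%) among these 8, of which they are 87.5%, and the other was COL10A1. It differed by -1.17 ± 0.344 (adjusted p = 0.00723, edgeR), a call lost in DESeq2 (adjusted p = 0.0545) and without combination replicate 2, at -0.96. COL10A1, on 6 to 22 counts a library, reached the cutoff in all 3 libraries of a group only in irradiated cells. Among the 18 genes past the cutoff in all 4 groups, 7 were lower in combination than in irradiated cells and 2 higher, with a median of -0.0679. COL6A2 was higher both with IFNγ alone and within irradiated cells. COL13A1 was higher only within irradiated cells, by 0.11 ± 0.0363 (adjusted p = 0.0134, edgeR), a call lost with no TMM scaling, at 0.07, and without irradiated replicate 1 or 2, at 0.11 and 0.1. In the comparison of combination with IFNγ cells the COL13A1 fall of 0.11 ± 0.0356 was lost with no TMM scaling and without IFNγ replicate 1, both at -0.08.

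No collagen was called for the interaction, the difference between the IFNγ log2 fold changes with and without radiation. edgeR called 0 of 23 in each direction, with adjusted p from 0.271 to 0.963, and DESeq2 called 0. At an unadjusted p under 0.05 there were 2, COL7A1 and COL5A1, against 14.7% of all tested genes, and 1.38% of all genes were called higher and 0.995% lower. The estimates were 0.44 ± 0.24 for COL1A1, 0.42 ± 0.188 for COL7A1, -0.11 ± 0.0514 for COL5A1, 0.18 ± 0.0966 for COL4A5, -0.02 ± 0.0477 for COL4A1 and -0.98 ± 0.533 for COL10A1. A missed threshold does not show that the effects were equal, and for the genes with few counts the errors leave room for large differences.

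**Figure D4:**
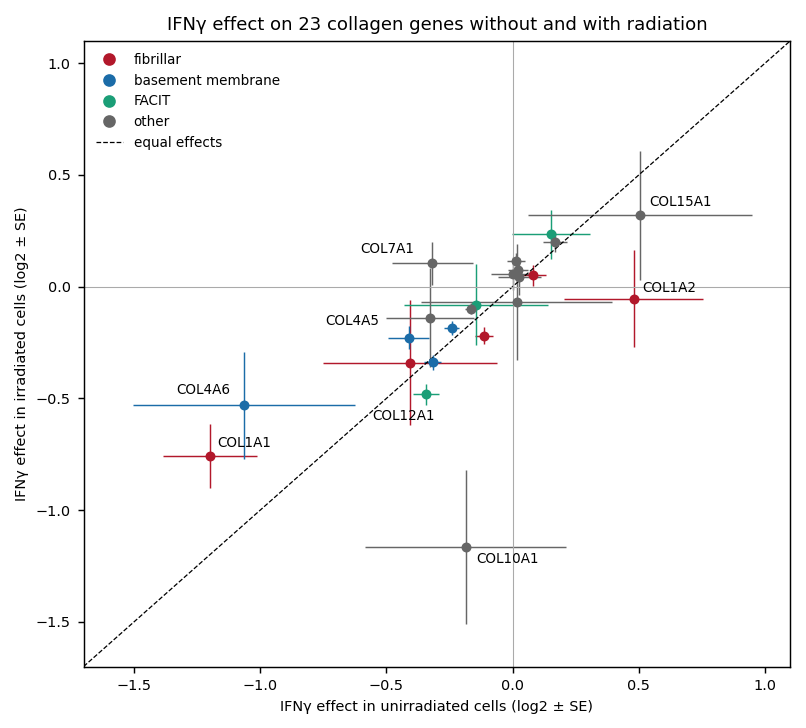
Log2 fold change ± SE of IFNγ in unirradiated cells (horizontal) and in irradiated cells (vertical) for the 23 tested collagen chain genes, coloured by class; the dashed line marks equal effects. COL1A1 lies in the lower left, at -1.2 and -0.76, and COL10A1, on 6 to 22 counts a library, lies farthest below the line. COL10A1 reached the cutoff of the filter in all 3 libraries of a group only in irradiated cells.

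The 21 untested genes had between 0 and 81 counts each over all 12 libraries. COL11A2, a minor cartilage fibril chain, had the most, and COL9A1, a FACIT chain of cartilage, had 0 in every library, which allows up to 3 counts. COL25A1, a neuronal transmembrane collagen, had 2, 0 and 0 counts untreated, 1, 1 and 0 with IFNγ, 6, 3 and 3 irradiated, and 6, 10 and 6 with both. COL11A1, another fibrillar chain of cartilage, had 1, 3 and 1, then 0, 1 and 2, then 7, 8 and 6, then 8, 0 and 3 in the same order of groups. Both were higher in irradiated than in untreated cells in a fit without the filter: COL11A1 by 2.03 ± 0.711 (adjusted p = 0.0126, edgeR), and COL25A1 at an adjusted p of 0.0321 (edgeR), with no fold given against 2 counts. COL3A1 was called in that fit as well, on 23 of its 26 irradiated counts in replicate 2 alone. COL9A3 and COL14A1 were called there between combination cells and IFNγ cells, with 1, 3 and 2 and with 1, 5 and 2 counts against 0 in all 3 IFNγ libraries. COL2A1, COL5A3, COL6A5, COL6A6, COL9A2, COL9A3, COL14A1, COL19A1, COL20A1, COL21A1, COL23A1, COL24A1, COL26A1, COL28A1, COL4A3 and COL4A4 had 2 to 51 counts in all.

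Genes that make, handle and bind collagen were read from 4 lists. Their counts stand beside the same shares over all tested genes as above, 27.9% higher and 28.2% lower with radiation and 15% higher and 14.1% lower with IFNγ, and their median log2 fold changes beside all-gene medians of 0.00607 and -0.00521. Of 22 tested genes of chain biosynthesis and modification, 15 were higher and 1 lower after radiation (median 0.231), and 4 were higher and 5 lower with IFNγ (median -0.0443). The IFNγ numbers of this list are near the all-gene shares. After radiation P3H2, a collagen prolyl hydroxylase, rose by 0.86 ± 0.138 and P4HA2, a subunit of another, by 0.51 ± 0.0556, while TMEM38B, an endoplasmic reticulum cation channel, fell by 0.29 ± 0.0867. With IFNγ, PLOD2, the telopeptide lysyl hydroxylase, rose by 0.6 ± 0.0374, from 470 ± 35.7 to 713 ± 16.8 CPM, and P4HA1 by 0.29 ± 0.0418. CREB3L1, a transcription factor of collagen production, rose by 0.38 ± 0.113 with radiation and fell by 0.65 ± 0.132 with IFNγ. COLGALT2, a collagen galactosyltransferase, fell by 0.74 ± 0.19, a call lost without untreated replicate 2 at -0.52. P3H2 also fell with IFNγ, by 0.63 ± 0.174, a call lost without untreated replicate 1 at -0.49. With both agents PLOD2 was 0.81 ± 0.0372 above untreated cells, COLGALT2 was at -1.21 ± 0.204 and P3H2 at 0.04 ± 0.155, not called. SERPINH1, the collagen chaperone of the endoplasmic reticulum, rose by 0.2 ± 0.0379 with IFNγ and was at -0.13 ± 0.0376 in combination against IFNγ cells. With radiation alone SERPINH1 was not called.

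Of 11 tested genes of processing and cross-linking, 7 were higher and 0 lower after radiation (median 0.23), and 0 were higher and 6 lower with IFNγ (median -0.215). BMP1, the procollagen C-proteinase, rose with radiation by 0.68 ± 0.058, and PXDN, the peroxidase that cross-links collagen IV, by 0.81 ± 0.0949. LOXL3, a lysyl oxidase, fell with IFNγ by 0.47 ± 0.0496. ADAMTS3, a procollagen N-proteinase, fell by 0.36 ± 0.12 with IFNγ, a call lost in DESeq2 (adjusted p = 0.0958) and without untreated replicate 1, at -0.33. Of 8 tested collagen receptors, 7 rose with radiation (median 0.525) and 3 fell with IFNγ (median -0.0528). ITGA10, a collagen-binding integrin chain, went from 31 ± 2.87 CPM untreated to 15.7 ± 2.4 with IFNγ, 57.8 ± 2.98 irradiated and 41.3 ± 2.77 with both, and ITGA2, another, rose with radiation by 0.83 ± 0.031. The collagen uptake receptor MRC2 rose with radiation by 0.7 ± 0.0478, and the receptor kinase DDR1 by 0.62 ± 0.052. ITGA11, a further integrin chain, fell with IFNγ by 0.56 ± 0.13, and DDR1 by 0.37 ± 0.0584.

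Of 14 tested basement membrane partners, 12 were higher and 1 lower after radiation (median 0.515), and 2 were higher and 6 lower with IFNγ (median -0.096), the number higher being near the all-gene share. HSPG2, the core protein of perlecan, went from 25.1 ± 3.04 CPM untreated to 17.3 ± 0.744 with IFNγ and 64.1 ± 5.61 irradiated, a rise of 1.35 ± 0.0785 with radiation. LAMB2, a laminin β chain, rose with radiation by 0.83 ± 0.0498, and LAMB3, a chain of epithelial laminin-332, fell by 0.35 ± 0.0293. With IFNγ the laminin chains LAMA1 and LAMA5 rose by 0.27 ± 0.0637 and 0.21 ± 0.0565, and the nidogen NID2 fell by 0.84 ± 0.204. In combination against untreated cells AGRN, the proteoglycan agrin, was 0.81 ± 0.0419 higher and HSPG2 1.2 ± 0.0794 higher. For the interaction, with all-gene shares of 1.38% higher and 0.995% lower, 3 genes of these lists were called: CREB3L1 at 0.68 ± 0.17 (adjusted p = 0.0166, edgeR), ITGA10 at 0.49 ± 0.112 (adjusted p = 0.00647, edgeR) and LOXL3 at 0.27 ± 0.0682 (adjusted p = 0.0151, edgeR). Their adjusted p rose above 0.05 when single libraries were left out: IFNγ replicate 2 or irradiated replicate 2 for CREB3L1, IFNγ replicate 1 for ITGA10, and IFNγ replicate 3, irradiated replicate 2 or combination replicate 2 for LOXL3.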

How the data were processed

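The deposited values were raw counts, whole numbers per gene that the authors had not normalized, in 12 columns matched to libraries by title and 0 left unmatched. Per the labels' protocols, ribosomal RNA was removed and stranded total RNA libraries were sequenced as paired ends. The design text of the series speaks of an mRNA protocol. TopHat2 2.0.13, Cuffdiff 2.2.1, Cufflinks and FastQC 0.11.3 are named, with build hg19 or GRCh37, per the submitters' processing notes. How reads were counted, with which annotation and strand setting, is not given in the sources used here.

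The tests used edgeR 4.0.16 (R 4.3.3). The filter was filterByExpr (minimum count 10, about 0.965 CPM in at least 3 libraries). Libraries were scaled by TMM, and a single robust quasi-likelihood fit of 4 group means took all 12 libraries. The F test was adjusted by Benjamini-Hochberg over 12160 genes. The SE of a log2 fold change is its size over the root of F, an approximation. The steps were tested on simulated counts. Over genes with at least 20 counts, replicate pairs differed by a chi-square per degree of freedom of 1.13 to 2.67, so no library was a copy of another. That check cannot tell separate cultures from repeat libraries of 1 culture. The common coefficient of variation between libraries of a group was 2.71% in edgeR.

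Lengths came from GENCODE 29, which matched 44 of 44 collagen identifiers without version. Its build differs from the authors', and no coordinates were taken from it. Promoters came from RefSeq (GRCh38.p14). Alternatives were DESeq2 1.42.0, no TMM, no filter, a replicate block, only the 2 groups compared, and leaving out each library. Merged exon lengths, the COL4A5 to COL4A1 ratio and counts over the 18 collagens past the cutoff in all 4 groups were added after seeing the data.

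The members, the gene lists and the tests were chosen with earlier results of these data known. Each tested collagen is named. Library values are given for those called at least once with a mean of at least 5 CPM in a group, and for COL1A2, added after its values were seen. Genes of the 4 other lists were named if called and, with mean log2 CPM of at least 2, among the 2 largest changes either way in a comparison. One gene of the treatment check is not reported here.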

Additional observations from a re-analysis of the deposited data

How the results depend on the processing

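No collagen reversed its direction in any alternative where it was called. With no TMM scaling the number of collagens higher with IFNγ went from 1 to 0, the number lower in combination than in IFNγ cells from 2 to 1, and the number higher in combination than in irradiated cells from 2 to 1, while summed collagen in IFNγ cells went from 4942 to 4795 CPM. Leaving out single libraries gave 0 to 1 (lost without untreated replicate 2), 1 to 2 (without IFNγ replicate 1) and 1 to 2 (without irradiated replicate 1 or 2) for those 3 counts, 6 to 7 for the number lower with IFNγ and 17 to 19 for the number higher with radiation. DESeq2 gave 17 higher with radiation, and no filter gave 21. TMM also sets the balance of calls over all genes. Without it the higher share of called genes went from 51.6% to 31.1% for IFNγ, from 53.9% to 38% for IFNγ within irradiated cells and from 58.1% to 69.4% for the interaction, and the median of all genes with IFNγ moved from -0.005 to -0.063. DESeq2 called 159 genes for the interaction, where edgeR called 289. With the replicate number as a block the numbers of collagens called were 18 higher with radiation and otherwise as before, the only lost call being COL5A1 with radiation (0.08, adjusted p = 0.0504, edgeR). Same-numbered libraries did not deviate together: correlations ran from -0.071 to 0.054, and 2 of 12 libraries matched their own number best. Genes under about 25 counts a library, such as COL10A1, COL15A1, COL5A2 and COL8A2, are limited by depth.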
